A study of Homo sapiens with 6 samples.

Results

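Nucleoporins, the building blocks of nuclear pores, and the receptors that carry cargo through those pores were followed in BE(2)-C, an established human neuroblastoma line, exposed to NCT-503, an inhibitor of the serine synthesis enzyme PHGDH. The members are the protein-coding genes whose array annotation names a NUP, importin (KPNA, KPNB, IPO), exportin (XPO other than XPO5) or transportin (TNPO), or NDC1, POM121, SEH1L, RAE1 or CSE1L. They number 47 of the 14779 genes tested, 26 nucleoporins and 21 transport receptors, and each has 1 row on the array, so no choice among rows was needed. The rule used gene names and no measured values. Genes of these families without a named row, such as NUP62, TPR, KPNA2 and XPO1, were not analysed here.

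The tested cultures received 10 µM NCT-503 for 2 days, and the controls received the vehicle DMSO for the same time. All were grown in the same serum-supplemented medium and carry no engineered change that the labels name. Each group has 3 samples (a, b and c), each hybridised as total RNA to 1 whole-transcript Affymetrix array, and the labels call the samples independent without saying whether they were separate cultures, so p-values measure only the spread between these samples. The line is a single established one, so nothing here speaks to other neuroblastomas. Values are the deposited log2 expression values; array medians over all 31135 rows lay at 4.32 to 4.33 with NCT-503 and at 4.30 to 4.31 with DMSO. Of 7 measured neuroblastoma markers, PHOX2A, GATA3, DBH, HAND2, ISL1, CHGA and TH, all had mean values of 5.88 to 10.41 with NCT-503 and 6.05 to 10.04 with DMSO. Among them, CHGA (-1.23), HAND2 (-0.30) and ISL1 (-0.29) were called lower. PHOX2A (0.75), GATA3 (0.37) and DBH (0.37) were called higher, and TH was not called. Of 8 measured markers of fibroblasts, Schwann, blood or epithelial cells, mean values ran from 2.85 to 6.98 with NCT-503 and from 2.76 to 7.22 with DMSO, the fibroblast gene LUM being highest in both; DCN alone was called (lower, -0.47).

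A nuclear pore is a ring-shaped channel through the nuclear envelope. Scaffold nucleoporins of the Y complex and the inner ring shape it, membrane nucleoporins anchor it, and nucleoporins rich in phenylalanine-glycine repeats fill its channel and extend to its cytoplasmic face and its nuclear basket. Importins bind cargo in the cytoplasm and exportins bind it in the nucleus, and the small GTPase Ran sets where each lets go. Importin alphas are adapters that recognise the classical nuclear localisation signal and ride on importin beta (KPNB1), and CSE1L returns them to the cytoplasm.

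After NCT-503, nucleoporin transcripts were lower or not called, and receptor transcripts went both ways, as did genes in general. A change is the mean log2 value with NCT-503 less that with DMSO, given with its standard error from limma (SE, 3 arrays per group), and a gene is called at a Benjamini-Hochberg adjusted p under 0.05 over all genes tested. Of the 47 members, 15 (31.9%) fell and 4 (8.51%) rose, beside 17.1% of all genes tested that were lower and 16.4% that were higher. Of the members, 44 passed the 25th percentile of mean level, 24 of them nucleoporins. Without genes under it, 24.0% of genes were lower and 22.3% higher, and 14 nucleoporins were lower and 0 higher. Without genes under the 50th percentile, these shares were 32.2% and 29.1%, with 15 nucleoporins lower and 0 higher. The shares over all genes tested are thus low for genes of this level. Of the 26 nucleoporins, 13 fell and 0 rose; by limma's unadjusted p under 0.05 the counts were 15 lower (57.7%) and 0 higher, beside 20.6% and 23.2% of all genes tested. Of the 21 receptors, 2 (9.52%) fell (IPO9 and KPNA3) and 4 (19.0%) rose (KPNA4, KPNA5, XPO7 and IPO7). Among these 21, the share that rose was close to that of all genes tested, and the share that fell was smaller. The naming rule bears on this: RANBP17 (-0.60) and RANBP6 (-0.56), paralogs of receptors outside it, were called lower. XPO5, also outside it, was not called (-0.07). By limma's unadjusted p under 0.05, 3 receptors (14.3%) were lower and 4 (19.0%) higher, both shares under those of all genes tested. The median change was -0.26 over the nucleoporins and 0.07 over the receptors, beside 0.06 over all genes tested. By a fold of at least 1.5, 5 nucleoporins fell (8.86% of all genes tested were called lower by that much) and KPNA4 alone rose (4.96% were called higher).

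**Figure D1:**
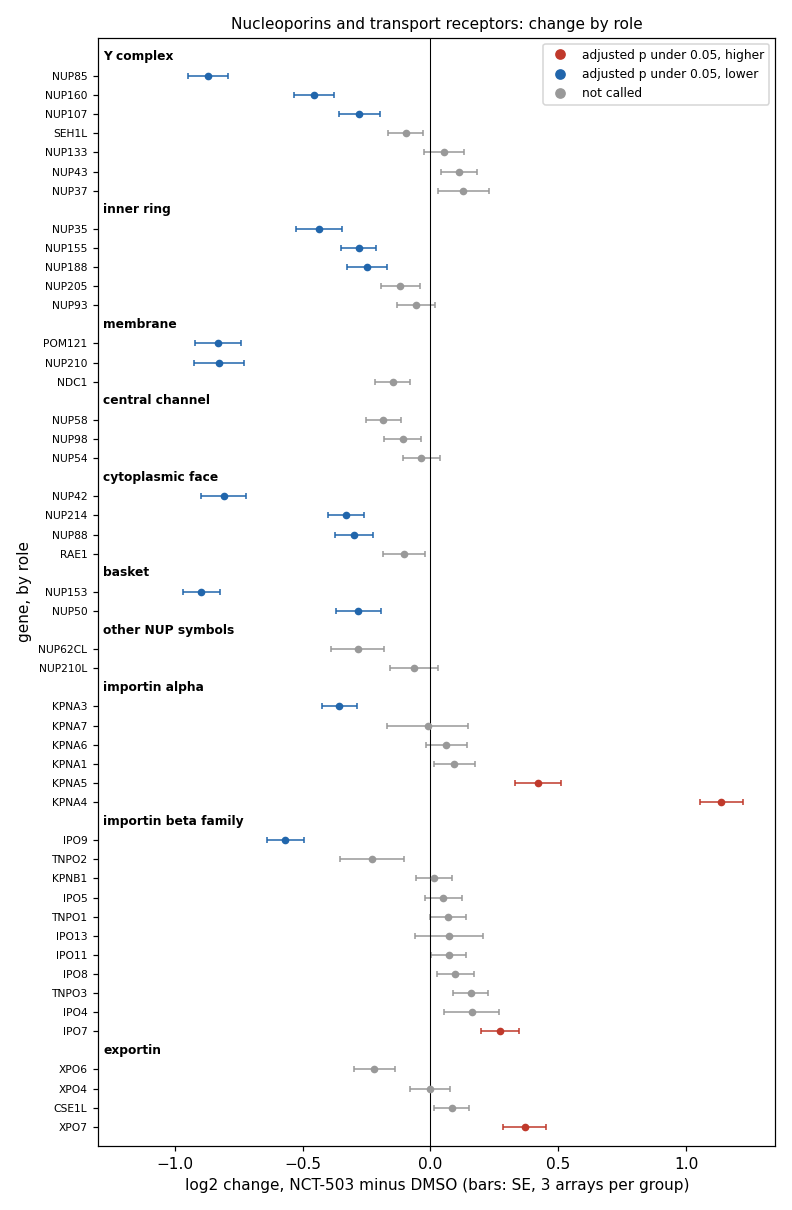
Log2 change (NCT-503 minus DMSO, x axis) of each of the 47 genes, grouped by role down the y axis, with bars for the SE over 3 arrays per group and colours for the call at an adjusted p under 0.05. The 13 called nucleoporins lie left of 0, from -0.90 to -0.25, and the called receptors lie on both sides, from -0.57 to 1.14.

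Under other scalings no nucleoporin was called higher, and fewer were called lower with either centring. After quantile normalization 13 were lower and 0 higher, with NUP62CL called in place of NUP50, and their median change was -0.25. With each array centred on its median or on its 75th percentile over the genes tested, 10 nucleoporins were lower and 0 higher. Their median change was -0.22 and -0.20 in that order. The array medians given earlier were over all rows, so they do not show the shift that this centring made. Of all genes tested, 15.7% were lower and 20.2% higher with centring on the median, and 14.8% and 22.6% with centring on the 75th percentile. Among all genes called, 48.8% were higher as deposited, 56.3% with centring on the median and 60.4% with centring on the 75th percentile. At an adjusted p under 0.01, 7 nucleoporins were lower and 2 receptors (KPNA4 and KPNA5) were higher.

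All 5 proliferation markers measured fell beside the nucleoporins. PCNA was at -2.04 ± 0.09, MKI67 at -1.17 ± 0.07, CCNB1 at -1.07 ± 0.08, MCM2 at -0.50 ± 0.12 and TOP2A at -0.42 ± 0.07, and no marker's groups overlapped. The samples hold many cells each, so a smaller share of dividing cells and less RNA of a gene per cell cannot be told apart, and the part of proliferation in the nucleoporin changes was not tested.

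Basket nucleoporins both fell. NUP153, which anchors the basket and docks import and export complexes, had 9.02, 9.14 and 9.05 in NCT-503 samples a, b and c, against 9.98, 9.96 and 9.95 in DMSO samples. Every NCT-503 value lay below every DMSO value. Its change of -0.90 ± 0.07 (SE, adjusted p = 0.000173) was the largest fall among the members. NUP50, a mobile basket protein that helps to release cargo from importin alpha, had 7.83, 7.66 and 7.82 with NCT-503, against 8.10, 8.11 and 7.94 with DMSO. The groups did not overlap, but the distance between the lowest DMSO and the highest NCT-503 value was smaller than the range within either group. Its change was -0.28 ± 0.09 (adjusted p = 0.0436). Its call was lost with either centring, after quantile normalization and without DMSO a, DMSO b or any NCT-503 array (adjusted p up to 0.128 over all alternatives).

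Membrane nucleoporins hold the pore in the envelope, and 2 of 3 fell. POM121, a membrane protein of the pore, had 6.45, 6.66 and 6.51 with NCT-503 and 7.35, 7.31 and 7.46 with DMSO. Its paralog POM121C is close in sequence, so the probes may not separate them; POM121C had a change of -0.39 ± 0.15 and was not called (adjusted p = 0.0877). NUP210, a large membrane glycoprotein of the pore, had 6.58, 6.70 and 6.45 with NCT-503, against 7.50, 7.29 and 7.42 with DMSO. Neither gene's groups overlapped, and the changes were -0.83 ± 0.09 for POM121 (adjusted p = 0.000532) and -0.83 ± 0.10 for NUP210 (adjusted p = 0.000777). NDC1, the third membrane nucleoporin, was not called (-0.15, 95% interval -0.31 to 0.01), although its groups did not overlap.

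At the cytoplasmic face, where exported RNA is released, 3 of 4 members fell. NUP42, a partner of the RNA export factor GLE1, had 6.36, 6.24 and 6.19 in NCT-503 samples and 7.11, 7.15 and 6.96 in DMSO samples. The groups lay far apart, with a change of -0.81 ± 0.09 (adjusted p = 0.000579). NUP214, a repeat-rich protein that binds the exportin XPO1, had 8.26, 8.34 and 8.30 with NCT-503, against 8.68, 8.63 and 8.59 with DMSO. NUP88, its binding partner, had 7.90, 7.86 and 7.78 with NCT-503, against 8.16, 8.10 and 8.17 with DMSO. Both partners were lower in every NCT-503 sample than in any DMSO sample, by similar amounts: -0.33 ± 0.07 for NUP214 (adjusted p = 0.0109) and -0.30 ± 0.07 for NUP88 (adjusted p = 0.0184). The NUP88 call was lost without DMSO a or DMSO c, at adjusted p-values up to 0.0633. RAE1, an RNA export factor that also acts at the mitotic spindle, was not called (-0.10), and its groups overlapped.

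The Y complex, the outer scaffold of the pore, split within itself: 3 of 7 measured subunits fell and 4 were not called. NUP85 had 5.93, 5.75 and 5.78 with NCT-503 and 6.68, 6.70 and 6.70 with DMSO, and its change of -0.87 ± 0.08 (adjusted p = 0.000259) was second in size among the falls. NUP160 had 6.98, 6.86 and 6.80 with NCT-503 and 7.36, 7.34 and 7.31 with DMSO. Its change was -0.46 ± 0.08 (adjusted p = 0.00396), again with no overlap. NUP107, a subunit of the stem of the Y, changed by -0.28 ± 0.08 (adjusted p = 0.0342) and lost its call with either centring and without any 1 array other than NCT-503 c (adjusted p up to 0.102). The other subunits had values close to those in DMSO samples or slightly higher: NUP133, the partner of NUP107, at 0.05 (95% interval -0.13 to 0.24), NUP43 at 0.11, NUP37 at 0.13 and SEH1L, which also belongs to the amino acid sensing complex GATOR2, at -0.10. Changes of NUP133, NUP43 and NUP37 were the only ones above 0 among the 26 nucleoporins on the deposited scale; 4 lay above 0 with median centring or quantile normalization and 6 with centring on the 75th percentile.

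In the inner ring, the scaffold around the channel, 3 of 5 members fell. NUP35, which links the ring to the membrane, had 5.94, 5.84 and 5.71 with NCT-503 and 6.18, 6.28 and 6.34 with DMSO, a change of -0.43 ± 0.09 (adjusted p = 0.00933) without overlap. NUP155 changed by -0.28 ± 0.07 (adjusted p = 0.0175), a call lost without DMSO b, DMSO c or NCT-503 b (adjusted p up to 0.0554), and NUP188 changed by -0.25 ± 0.08 (adjusted p = 0.0439). The large scaffold protein NUP205, a paralog of NUP188, was at -0.12 (95% interval -0.29 to 0.06) and NUP93, the hub of the ring, at -0.06 (-0.23 to 0.12), and neither was called. NUP188 was the called member nearest the threshold; it lost its call with either centring and when any 1 array was left out (adjusted p up to 0.125).

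Nucleoporins of the central channel form the barrier that receptors cross, and none of the 3 measured was called. NUP58 had 8.07, 8.12 and 8.12 with NCT-503, against 8.27, 8.29 and 8.30 with DMSO, a change of -0.18 ± 0.07 (adjusted p = 0.0788) with groups that did not overlap. NUP98 was at -0.11 and NUP54 at -0.04. By unadjusted p under 0.05, 1 of the 3, NUP58, passed. NUP62CL and NUP210L, paralogs of NUP62 and NUP210, had mean values of 3.25 and 2.69 with NCT-503 and 3.53 and 2.76 with DMSO, and neither passed the 25th percentile of mean level over the genes tested, where changes may be understated. NUP62CL had 3.22, 3.30 and 3.22 with NCT-503 and 3.34, 3.68 and 3.59 with DMSO; with an adjusted p of 0.0716 it was the uncalled member nearest the threshold, followed by XPO6 at 0.0717.

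**Figure D2:**
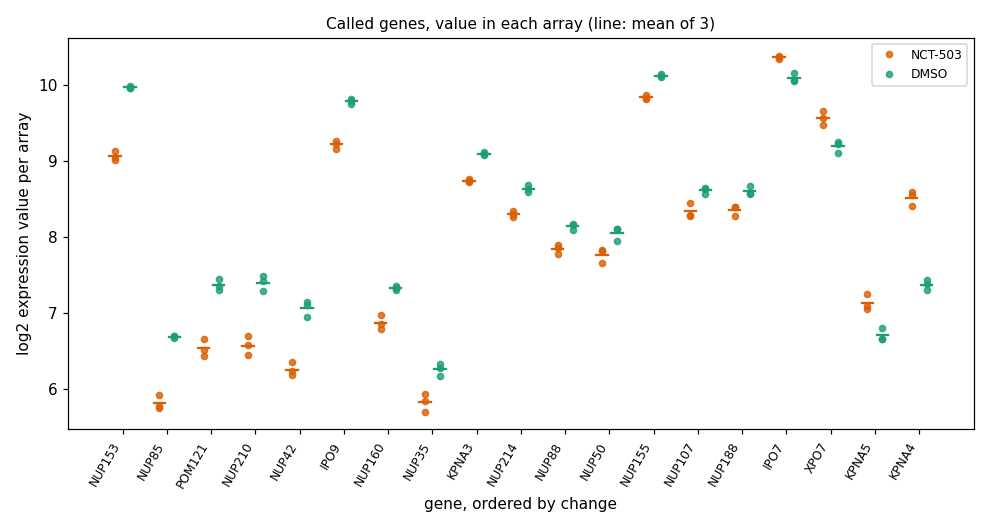
Log2 expression value in each array (y axis) of the 19 called genes (x axis, ordered by change), with NCT-503 at the left and DMSO at the right of each gene and a line at the mean of 3. The groups do not overlap in any of the 19; KPNA4 is the gene with the widest gap, 8.40 to 8.59 with NCT-503 and 7.31 to 7.44 with DMSO.

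Counting genes whose groups did not overlap, whether called or not, 19 of 26 nucleoporins (73.1%) had every NCT-503 value below every DMSO value, and 1, NUP43, had every value above. Among all genes tested the shares were 22.4% below and 25.4% above. They were not computed over genes of similar mean level, among which the shares of called genes were larger. Of the 21 receptors, 3 (14.3%) lay below and 9 (42.9%) above. In each sample taken against the DMSO mean, the median nucleoporin lay at -0.22, -0.22 and -0.23 in NCT-503 a, b and c. The median receptor lay at 0.06, 0.10 and 0.04 in the same order. These medians are given without DMSO values, which lie near 0 by construction.

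**Figure D3:**
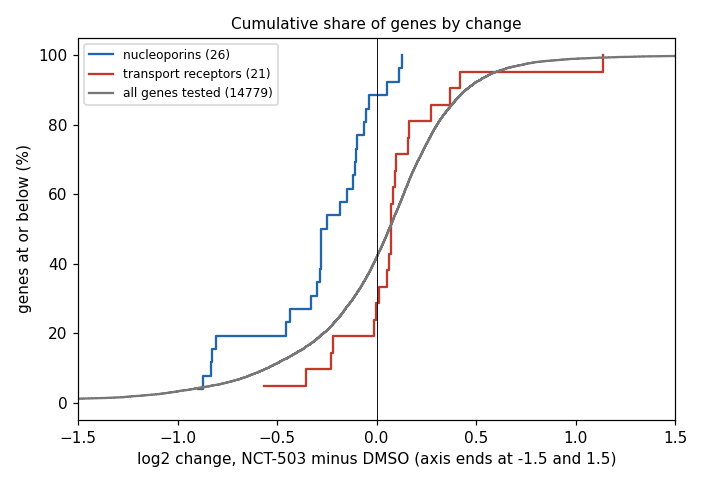
Cumulative share of genes (y axis, percent) at or below each log2 change (x axis, NCT-503 minus DMSO) for 26 nucleoporins, 21 transport receptors and all 14779 genes tested. The nucleoporin curve reaches 50% at lower changes (median -0.26) than the curves of the receptors (0.07) and of all genes (0.06).

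The importin alphas held both the largest rise of all members and a fall. KPNA4 (importin alpha 3) had 8.55, 8.40 and 8.59 in NCT-503 samples and 7.31, 7.44 and 7.39 in DMSO samples. The change was 1.14 ± 0.08, or 2.20-fold (adjusted p = 0.000132), and the lowest NCT-503 value stood well above the highest DMSO value. KPNA3 (importin alpha 4), the closest paralog of KPNA4, went the other way, with 8.74, 8.76 and 8.72 with NCT-503, against 9.08, 9.10 and 9.11 with DMSO. Its samples were tightly grouped, and the change was -0.36 ± 0.07 (adjusted p = 0.00631). The 95% intervals of these changes, 0.94 to 1.34 for KPNA4 and -0.51 to -0.20 for KPNA3, lie on opposite sides of 0.

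KPNA5, an importin alpha of a different subfamily, had 7.05, 7.09 and 7.25 with NCT-503 and 6.66, 6.67 and 6.81 with DMSO. It rose by 0.42 ± 0.09 (adjusted p = 0.00999) without overlap between the groups. Its close relatives KPNA1 and KPNA6 were not called, at 0.09 (95% interval -0.10 to 0.28) and 0.06 (-0.13 to 0.25). KPNA7, which is known from oocytes and early embryos, had means of 2.16 with NCT-503 and 2.17 with DMSO and was not called. It did not pass the 25th percentile of mean level over the genes tested, so a change may be understated. Of the 6 importin alphas measured, 2 thus rose, 1 fell and 3, the low KPNA7 among them, were not called.

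In the importin beta family, which carries cargo through the pore directly or with adapters, 9 of 11 members were not called. KPNB1, the carrier of all importin alphas, had 11.14, 11.17 and 11.18 with NCT-503 and 11.15, 11.19 and 11.11 with DMSO. The groups overlapped throughout, and the 95% interval of its change (0.01) ran from -0.15 to 0.18. IPO9, an importer and chaperone of histones H2A and H2B, had 9.23, 9.26 and 9.16 with NCT-503, against 9.79, 9.81 and 9.75 with DMSO. It was the receptor with the largest fall, -0.57 ± 0.07 (adjusted p = 0.00107).

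IPO7, which imports ribosomal proteins and, together with KPNB1, linker histone H1, had 10.33, 10.36 and 10.38 with NCT-503 and 10.06, 10.05 and 10.16 with DMSO. It rose by 0.27 ± 0.07 (adjusted p = 0.0251). This call was lost after quantile normalization and without DMSO a, DMSO b or any of the NCT-503 arrays (adjusted p up to 0.0831 over all alternatives). Its paralog IPO8, an importin linked to Argonaute and SMAD proteins, was at 0.10 and not called, although its groups did not overlap. The remaining members were IPO4 (0.16), IPO11 (0.07), IPO13 (0.07) and IPO5 (0.05), together with the transportins TNPO3 (0.16), which imports SR splicing factors, TNPO1 (0.07), which imports HNRNPA1, and TNPO2 (-0.23), the paralog of TNPO1. None of these was called. TNPO2 had the widest spread among the NCT-503 samples of this family, with 8.36, 8.20 and 7.90, against 8.46, 8.38 and 8.31 with DMSO.

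Of 4 measured exportins, XPO7, which carries a broad set of proteins, rose. It had 9.65, 9.57 and 9.47 with NCT-503 and 9.10, 9.25 and 9.22 with DMSO, a change of 0.37 ± 0.09 (adjusted p = 0.0144). The groups did not overlap, and the call was lost without DMSO a (adjusted p = 0.0531). With DMSO a left out, 2 members rose in place of 4. CSE1L, the recycler of importin alphas, was at 0.08 (95% interval -0.08 to 0.24), and XPO4, an exporter of the translation factor eIF5A, at -0.002 (-0.19 to 0.18). XPO6, the exporter of actin and profilin, was at -0.22 (adjusted p = 0.0717). CSE1L and XPO6 had groups that did not overlap.

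For the promoters of falling nucleoporins, the 250 bases before the gene start were searched in RefSeq promoter sequences of build GRCh38.p14, which were matched for 41 of the 47 members, all 13 falling nucleoporins among them. The search covered both strands and used letters of sites for cell cycle, respiratory and stress factors. Shares of genes tested are over the 10715 that had a promoter sequence. Of the members, 11 had several promoters, and each gene was counted once. An E2F site (TTTGGCGC or TTTCGCGC) stood before 0 of the 13 falling nucleoporins, 0 of 12 uncalled ones and 1.53% of genes tested. The cell cycle homology region (TTTGAA) stood before 2 of 13, 5 of 12 and 13.5%. A CCAAT box stood before 5 of 13, 6 of 12 and 39.8%. The core of the NRF1 site, CGCATGCG, stood before 2 of 13, 0 of 12 and 3.06%, the ATF/CREB site TGACGTCA before 2 of 13, 2 of 12 and 2.73%, and the C/EBP-ATF site TTGCATCA, which ATF4 can bind, before 1 of 13, 0 of 12 and 0.756%. None of these motifs contains another. The matches describe letters and say nothing of binding.

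The 100 bases directly before the start of the 5 falling nucleoporins with an NRF1, ATF/CREB or C/EBP-ATF match are shown 5′ to 3′ on the gene's strand, so that the match can be seen in its place; capitals mark the matched letters. The NUP153 window lies at chr6:17706926-17707025 on the minus strand, that of NUP42 at chr7:23181948-23182047, that of NUP214 at chr9:131125486-131125585, that of NUP50 at chr22:45163825-45163924 and that of NUP107 at chr12:68686878-68686977, the last 4 on the plus strand.
NUP153: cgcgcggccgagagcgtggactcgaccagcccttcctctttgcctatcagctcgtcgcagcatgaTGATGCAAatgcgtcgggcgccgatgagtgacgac
NUP42: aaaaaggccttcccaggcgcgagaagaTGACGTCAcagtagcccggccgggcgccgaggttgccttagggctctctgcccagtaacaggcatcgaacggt
NUP214: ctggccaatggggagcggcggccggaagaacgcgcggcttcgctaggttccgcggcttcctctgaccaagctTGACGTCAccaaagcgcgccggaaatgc
NUP50: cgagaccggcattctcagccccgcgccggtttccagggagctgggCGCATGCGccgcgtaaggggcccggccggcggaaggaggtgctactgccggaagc
NUP107: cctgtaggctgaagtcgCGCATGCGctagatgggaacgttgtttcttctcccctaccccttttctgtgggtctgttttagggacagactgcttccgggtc
The NUP153 match, the reverse complement of the letters above, reads TGATGCAA on the gene's strand and begins 35 bases before the start. The ATF/CREB match begins 73 bases before the start of NUP42 and 28 bases before that of NUP214, and the NRF1 match begins 55 bases before the start of NUP50 and 83 before that of NUP107. NUP153 and NUP42 were among the largest falls, NUP214 (-0.33) lay between, and NUP50 and NUP107 were among the smallest called ones. The ATF/CREB letters also stood before the uncalled NUP133 (0.053) and NUP210L (-0.065). Whether the kind of match goes with the size of the fall was not tested.

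Genes that work with the pore were read from 5 lists of related genes, of which 50 genes were measured: 23 (46.0%) fell and 5 (10.0%) rose, beside the 17.1% and 16.4% of all genes tested. Of the 50, 47 passed the 25th percentile of mean level. Without genes under it, 24.0% of genes were lower and 22.3% higher, and 24 related genes were lower and 4 higher. The median change was -0.38 in the Ran cycle list, -0.32 among further pore proteins and partners, -0.16 in mRNA export and -0.45 in the lamina and envelope list, beside 0.06 over all genes. In the Ran cycle list, 5 of 9 measured members fell and 0 rose (0 also with an unadjusted p under 0.05). RAN itself and its exchange factor RCC1 were not among the 9. The largest falls were in paralogs of receptors, so the counts describe the core of the cycle only in part. RANBP1 was called lower at -0.38 ± 0.10 (adjusted p = 0.0238), and NUTF2 was not called (-0.005). RANBP17, a paralog of XPO7, and RANBP6, a paralog of IPO5, were at -0.60 ± 0.08 and -0.56 ± 0.08. RCC2, a relative of the Ran exchange factor RCC1 that acts in mitosis, was at -0.55 ± 0.08, and RANGAP1, which makes Ran hydrolyse GTP, at -0.43 ± 0.13 (adjusted p = 0.0347). Of 6 further pore proteins and partners, AHCTF1 (ELYS), which seeds pore assembly on chromatin and binds the Y complex, fell by 0.60 ± 0.08, and RANBP2 (NUP358), the main filament of the cytoplasmic face, fell by 0.43 ± 0.09.

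The nuclear lamina and envelope list held the largest falls around the pore. Of 15 measured members, 8 (53.3%) fell and 1 (6.67%) rose, beside 17.1% and 16.4% of all genes tested. LMNB1, the lamin that lines the inner membrane, had 7.29, 7.27 and 7.32 with NCT-503, against 8.38, 8.34 and 8.50 with DMSO, a change of -1.12 ± 0.08 (adjusted p = 0.000102). The lamin B receptor LBR changed by -1.09 ± 0.09, the envelope protein NEMP1 by -1.05 ± 0.07 and TMPO, which encodes lamina-associated polypeptide 2, by -1.03 ± 0.08. None of these had overlapping groups. The member that rose was EMD, emerin, named after its value was seen, with 8.69, 8.44 and 8.28 with NCT-503 and 7.47, 7.59 and 7.42 with DMSO (0.97 ± 0.12, adjusted p = 0.000937). LMNA, the A-type lamin gene, was not called (0.34 ± 0.13, adjusted p = 0.0852).

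Of 19 measured mRNA export genes, 8 (42.1%) fell and 4 (21.1%) rose, beside 17.1% and 16.4% of all genes tested. Without genes under the 25th percentile of mean level, 24.0% of genes were lower and 22.3% higher, so the share that rose was near that of genes in general. The falls were led by CHTOP (-0.77 ± 0.10), THOC1 (-0.64 ± 0.10) and THOC6 (-0.64 ± 0.12), factors of the TREX export complex, and by ZC3H11A (-0.54 ± 0.07). The rises, named after their values were seen, were SARNP (0.50), NXF2 (0.50, with means of 3.27 with NCT-503 and 2.77 with DMSO), DDX19B (0.37) and FYTTD1 (0.35). DDX19A, a near-identical copy of DDX19B, was called lower (-0.47), so their rows moved in opposite directions. How far the probes separate the copies was not tested. XPO5, the microRNA export receptor, was at -0.07 and not called.

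**Figure D4:**
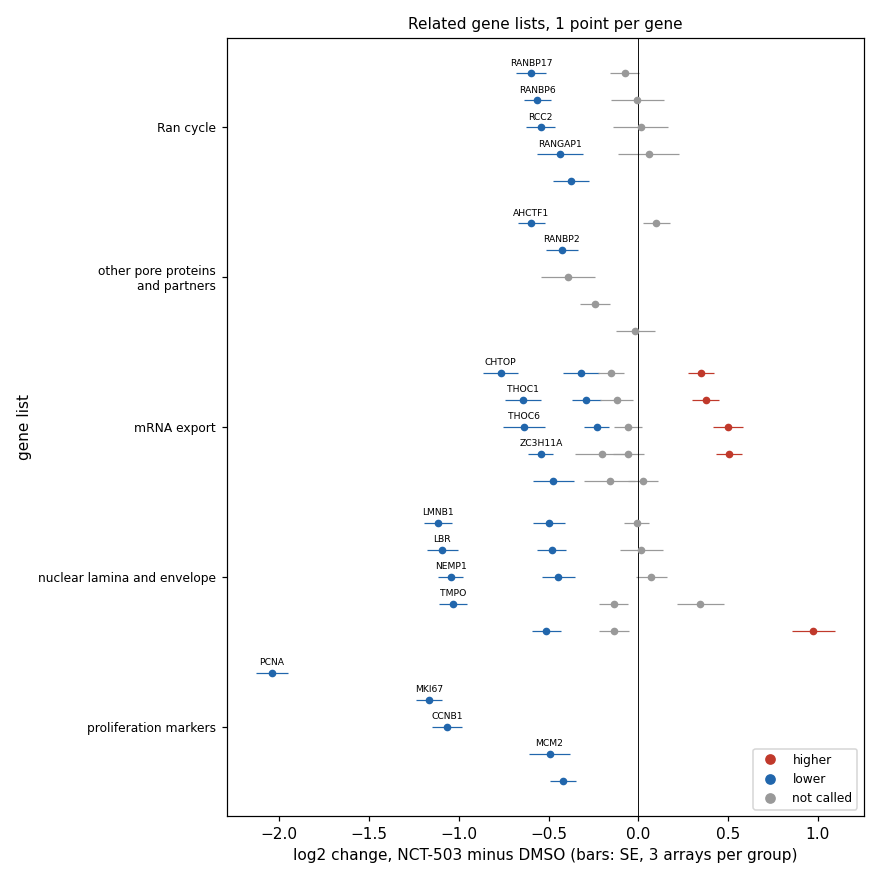
Log2 change (NCT-503 minus DMSO, x axis) of each measured gene of 4 related lists and of 5 proliferation markers (y axis), with bars for the SE over 3 arrays per group, colours for the call and names for up to 4 of the largest called changes per list. Lamina and envelope genes reach -1.12 and proliferation markers reach -2.04.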

How the data were processed

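Per the submitters' processing notes, the authors used Partek; its version and its normalization steps were not given in the sources used. From their range, the authors' deposited values are read as log2 expression, and they were not rescaled. Rows were named through GEO's platform annotation, which gave 15098 of 31135 rows 1 gene symbol and none several; all found their Entrez identifier in the RefSeq table of GRCh38.p14. Each gene was represented by its row of highest mean, leaving 14779 genes. The test was limma's moderated linear model (version 3.58.1, R 4.3.3; no trend, no covariates, two-sided, Benjamini-Hochberg over all genes tested); the steps were tested on simulated data. The number of arrays limits precision: the median SE over genes was 0.105.

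The members, the related lists and the letters searched in promoters were chosen with earlier results of these data known. Every member is accounted for by role; sample values are given for all rises, the 12 largest called falls and at least 1 member per role, and the rule names up to 4 called members per related list. EMD, SARNP, NXF2, DDX19B, FYTTD1, DDX19A, RANBP1 and NUTF2 were named beyond it after their values were seen. NUP42 and NUP58 were placed in roles after the annotation was seen. Beside the members, 8 lists were read: Ran cycle, pore partners, mRNA export, tRNA and microRNA export, lamina and envelope, proliferation, neuroblastoma and other-cell markers. Alternatives changed the variance model, array weights, pairing, scaling, filter, rows, threshold and arrays. The NRF1 letters were shortened to their core after a first search with a longer form, which had matched the same nucleoporins. Coordinates are those of the RefSeq promoter table only.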

Additional observations from a re-analysis of the deposited data

How the results depend on the processing

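No called member changed sign in any of the 17 alternatives, and 11 of the 19 called members kept their call in every alternative that tested them. At an adjusted p under 0.01, 9 members were lower and 2 higher, with 7 nucleoporins lower and 2 receptors higher. Leaving out 1 array at a time gave 2 to 4 members higher, 11 to 13 lower, 9 to 11 nucleoporins lower, 2 to 4 receptors higher and a median change of -0.105 to -0.08 over members and -0.263 to -0.216 over nucleoporins; 12 of 19 called members kept their call without each array. The median change over all members was -0.055 with median centring and -0.028 with 75th-percentile centring. Over the nucleoporins it was -0.247 with array weights, -0.221 and -0.195 with those centrings and -0.248 after quantile normalization, and over the receptors it was 0.114 and 0.141 with the centrings. The cause of these shifts is the constant that centring adds to every gene; for array weights and quantile normalization the cause was not tested. Same-lettered samples did not pair (correlations of their deviations 0.004, 0.003 and 0.037), and with the replicate block 11 members were lower and 3 higher. The fit with trend and robust settings called 18 lower and 6 higher.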
